A study of Arabidopsis thaliana with 12 samples.

Results

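Arabidopsis thaliana seedlings raised on 3-bromo-7-nitroindazole (3B7N) were compared with seedlings raised on 3-bromoindazole (3BRO). Both compounds carry a bromine on the indazole ring, and only 3B7N carries the nitro group, so the comparison asks what the nitro group adds when the bromine is already there. It takes the 3 arrays titled 3B7N and the 3 arrays titled 3BRO, which are 6 of the 12 arrays in the series, and covers every locus measured on them.

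All seedlings were wild type of the accession Col-0 and were harvested whole. They grew from sowing on agar that held 3B7N at 2.5 µM, 3BRO at 2.5 µM, 7-nitroindazole (7NIT) at 2.5 µM, or the solvent dimethyl sulfoxide (DMSO). The plates stood 3 days in cold darkness and then 4 days in blue light kept on throughout, at 10 µmol m-2 s-1. Whether the 3 samples of a treatment were grown as independent cultures is not given in the labels, and the p-values rest on the spread among those 3 samples, technical or not.

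As background, 7-nitroindazole and its bromo derivative are known in mammals as inhibitors of nitric oxide synthase. Blue light is sensed in seedlings by cryptochromes and phototropins, and light turns on genes for photosynthesis and restrains stem growth. Copper supply in Arabidopsis is read by the transcription factor SPL7: when copper is short, SPL7 turns on genes for copper uptake and for enzymes that replace copper proteins, such as the iron superoxide dismutase FSD1.

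A level below is the log2 of an array's processed signal minus the 75th percentile of that array, so that 0 is the level of a bright probe at that percentile, and levels of different loci are not compared with each other. Each locus was read by its brightest usable probe. Of 29030 loci on the array, 23443 were bright enough to be tested. Levels of arrays of 1 treatment correlated at 0.982 on average among the 3B7N arrays and 0.987 among the 3BRO arrays, and the median locus had an SD of 0.24 and 0.22. The 4 arrays 3B7N 1, 3B7N 2, 3BRO 2 and 3BRO 3 lay on 1 slide, called the shared slide below. 3B7N 3 lay on the slide of the 7NIT arrays and 3BRO 1 on the slide of the DMSO arrays, and the 3BRO 2 signals were deposited rounded to 3 significant digits. Marker lists for the organs showed green shoot tissue and root in both groups. The mean level of 20 antenna protein genes was between 5.36 and 5.58 on the 3B7N arrays and between 5.57 and 6.09 on the 3BRO arrays. The mean of 13 root and root hair markers was between -2.72 and -2.61 with 3B7N and between -2.57 and -1.53 with 3BRO.

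The nitro group came with a broad difference in transcript levels, and more loci were lower than higher. In a limma fit over all 12 arrays, 1768 loci (7.54% of those tested) had a Benjamini-Hochberg adjusted p under 0.05 and are called changed below. Of these, 637 (2.72%) were higher and 1131 (4.82%) were lower with 3B7N. Changes of at least 2-fold were seen at 369 higher loci (1.57%) and 456 lower loci (1.95%). The 3 arrays of 3B7N all lay on the same side of the 3 arrays of 3BRO at 1767 of the 1768 called loci. Over all tested loci they all lay above at 2668 (11.4%) and all below at 3285 (14%). The calls rest on these same arrays, so nothing is read from the count among called loci. On the shared slide alone, all 1768 had the same sign, but its arrays are among those that made the calls. At the 1767 loci without overlap the sign could not differ on a part of the arrays, so nothing is read from this agreement either. Over all loci the median difference was -0.01 on the log2 scale. At 16591 loci the 95% interval of the difference lay within 1 log2 unit on either side of 0, and at 5276 within 0.5 units, which bounds how far the compounds can differ there.

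The number of calls depended on single arrays. It was 1198, 1639 and 1363 without 3B7N 1, 2 and 3, and 1213, 856 and 1034 without 3BRO 1, 2 and 3. With the slide as a block, which rests on the shared slide, 373 loci (1.59%) were called higher and 812 (3.46%) lower, and 768 of these 1185 are among the 1768. Among genes named below, the slide block ended the calls of IAA6, AT1G28455, AT2G37870, VIT1, NAS4, LHCA6, LHCA5, CHLI1, HY5, PHYA, ST2A, CYP71B15, KIN1, KIN2, APX2, HMA5, IAA27 and ATCG00480 (adjusted p 0.051 to 0.15). The normexp background correction, which adds an offset of 50 to each signal, ended those of all named loci that were measured in 1 treatment only (adjusted p 0.17 for NATA1, 0.75 for CYP71A13 and 0.55 for MIR408). Among the leading loci measured on all 6 arrays it also ended those of SAUR25, AT5G63350, AOX2, AT2G35070, SAUR11, BAM6 and MYB62 (0.057 to 0.57). In all, normexp ended 70 of the 141 calls of named loci. FRK1, PIN5, LAC2, HMA5, CYP71B15, EXPA18 and RSL2 were among those lost.

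**Figure D1:**
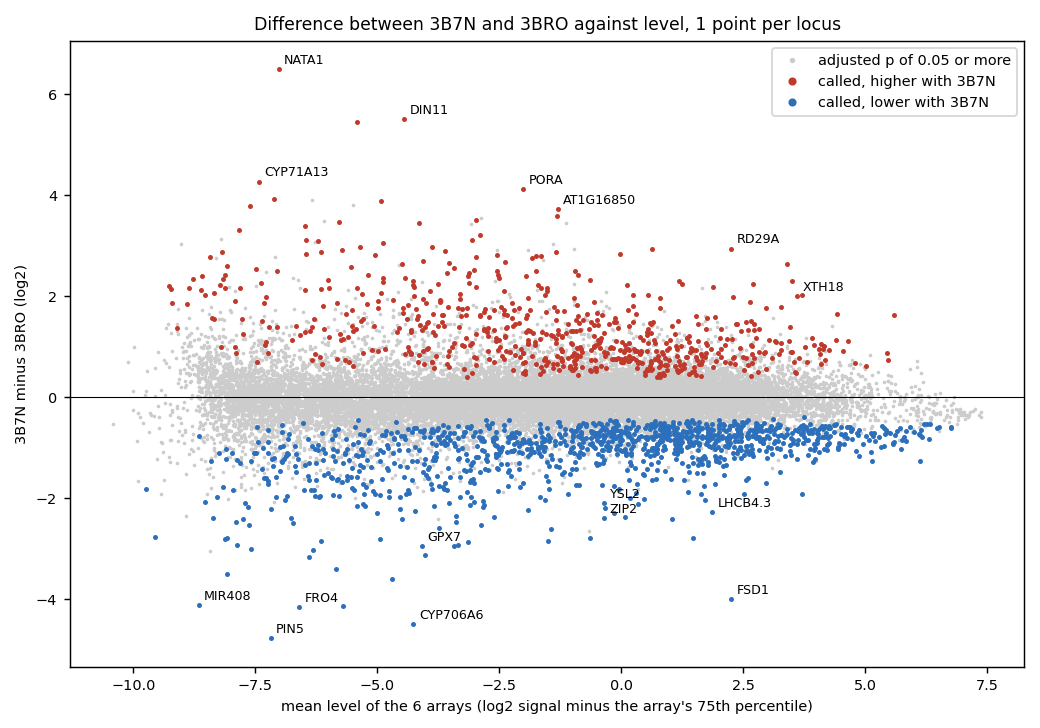
Difference between 3B7N and 3BRO on the log2 scale (vertical) against the mean level on the 6 arrays (horizontal), 1 point per locus, for 23443 loci. Red points are the 637 loci called higher and blue points the 1131 called lower with 3B7N, and the called loci run over the whole range of levels.

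Among loci measured on all 6 arrays, the highest rises were those of DIN11 and PORA. DIN11, a dioxygenase gene named for its induction in darkness, had levels of -1.77, -1.51 and -1.79 in 3B7N seedlings, against -6.69, -7.45 and -7.47 in 3BRO seedlings. The groups stood far apart, and the difference was 5.51 (SE 0.33), or 45.6-fold, with an adjusted p of 3.4e-05. PORA, the protochlorophyllide reductase typical of dark-grown seedlings, had levels of -0.26, 0.21 and 0.19 with 3B7N, against -3.96, -4.50 and -3.76 with 3BRO. Every 3B7N array was higher by more than 3 log2 units, and the difference was 4.12 (SE 0.37), or 17.4-fold, at an adjusted p of 0.00034. The other leading rises were those of the auxin-responsive genes SAUR25 (3.88), IAA6 (3.22) and SAUR11 (2.98), of CBSX5 (3.12), a CBS domain protein, and of AOX2 (3.09), an alternative oxidase. AT1G16850, AT4G35720, AT4G17470, AT5G63350 and AT2G35070 rose by 3.05 to 3.73.

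The lowest were CYP706A6 and FSD1. CYP706A6, a cytochrome P450 gene, had levels of -7.47, -5.75 and -6.31 with 3B7N, against -1.55, -2.14 and -2.33 with 3BRO. All 3B7N arrays were lower by more than 3 log2 units; the difference was -4.50 (SE 0.41), with an adjusted p of 0.00037. CYP71B36, another P450 gene, fell by 3.13 (SE 0.25), and GPX7, a glutathione peroxidase, by 2.95 (SE 0.28). BAM6, a beta-amylase gene, had a difference of -3.03, RK2, a receptor kinase gene, of -2.87, and MYB62, a MYB transcription factor gene, of -2.84. The leading falls also held AT3G10185, AT1G66540, AT1G29720, AT2G27395 and AT1G24148, with differences of -3.60 to -2.80.

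**Figure D2:**
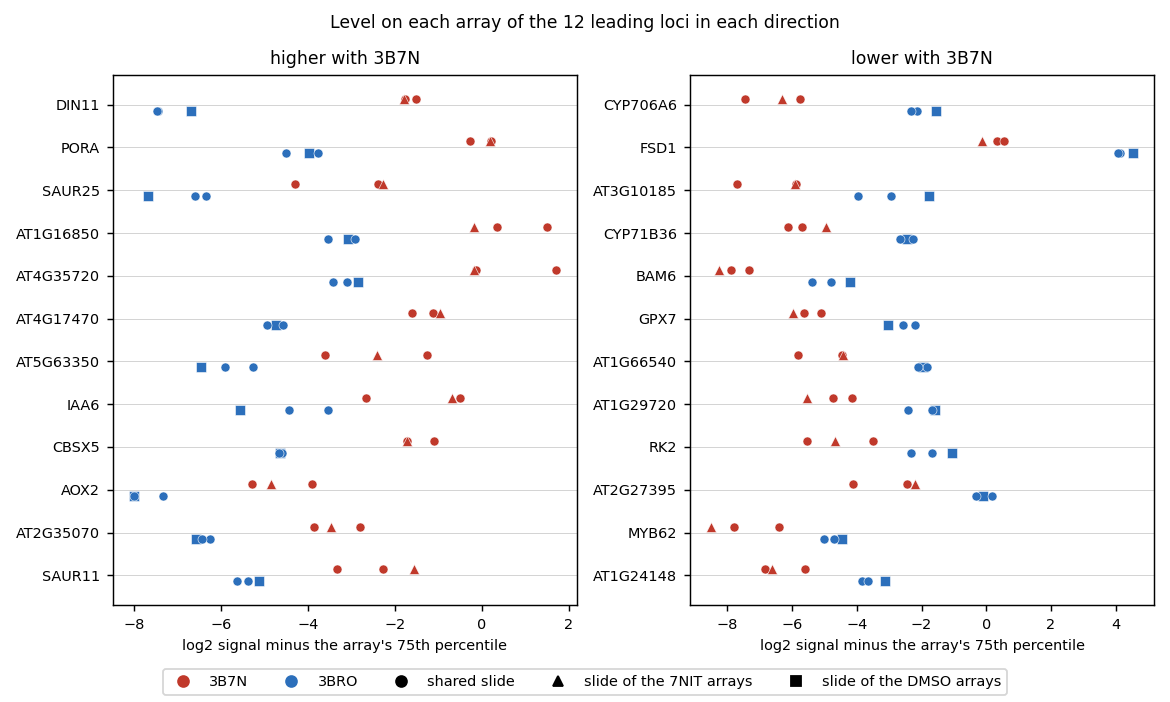
Level on each array (horizontal, log2 signal minus the array's 75th percentile) of the 12 loci with the highest and the 12 with the lowest called difference among those measured on all 6 arrays. Red marks are 3B7N and blue marks 3BRO. Circles are arrays of the shared slide, triangles of the 7NIT slide and squares of the DMSO slide. The loci were picked for having no overlap between the colours.

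Some loci could be measured in 1 treatment only, where the fold is a lower bound. NATA1, which acetylates ornithine and is known as a jasmonate-responsive gene, had levels of -5.16, -2.71 and -3.44 with 3B7N, against -10.54, -10.75 and -9.51 with 3BRO. No 3BRO array was well above background, so NATA1 was at least 25.3-fold higher with 3B7N (adjusted p 0.00024). The bound sets the mean of the measured group against the lowest signal that counts as well above background on each array of the other. A locus dim on every array of 1 treatment could enter the test only through another treatment, in which it was bright. Nothing is therefore read from such a call beyond the bound, also where dim loci are counted in lists below. CYP71A13, an enzyme of the camalexin pathway, was at least 8.59-fold higher, AT3G29060 at least 9.71-fold, HDG8, a homeodomain gene, at least 4.76-fold and AT1G28455 at least 3.19-fold. In the other direction the MIR408 precursor locus (AT2G47015) was at least 4.8-fold lower with 3B7N, and AT3G46340 at least 4.53-fold lower. AT1G29724 and AT5G23903, each measured on 2 of the 3 arrays of 3BRO, were at least 1.62-fold and 2.6-fold lower. The call of AT5G23903 was lost without 3B7N 1, 3BRO 2 or 3BRO 3 (adjusted p 0.084, 0.11 and 0.1).

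Some copper-linked genes were lower with 3B7N, by the widest margins FRO4 and FSD1. Of 34 tested members of a list of copper transport and copper protein genes, 9 fell (26.5%) and 2 rose (5.88%), against 4.82% and 2.72% of all loci, while 13 differences were above 0 and the median of the list was -0.18. The gene lists and their members were chosen with earlier results of these data known. A share above that of all loci is therefore no support, here or in the lists below. Without 3BRO 2 the count of falls was 7, without any other single array 9, and with the slide as a block 9. FSD1 had levels of 0.34, 0.56 and -0.14 with 3B7N, against 4.54, 4.12 and 4.08 with 3BRO. That is a clear gap at a high level, with a difference of -4.00 (SE 0.20), or 15.9-fold, at an adjusted p of 1.4e-05.

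Genes of metal reduction and uptake were called lower in part. FRO4, a ferric chelate reductase that also reduces copper at the root surface, had levels of -10.05, -8.48 and -7.53 with 3B7N, against -5.78, -3.63 and -4.15 with 3BRO. It was well above background on 2 of the 3B7N arrays, and its difference was -4.16 (SE 0.68, adjusted p 0.0062). ZIP2, a metal transporter, had levels of -2.51, -1.23 and -0.90 with 3B7N, against 0.01, 1.31 and 1.24 with 3BRO, a difference of -2.40 (SE 0.45, adjusted p 0.011). The 3BRO 1 array was the lowest of its group at both loci. YSL2, a transporter of metal chelates, fell by 2.1 (SE 0.30), and the copper transporter COPT2 by 0.88 (SE 0.16). COPT6 fell by 0.66, a call lost without 3BRO 2 (adjusted p 0.061), and the copper chaperone CCH by 0.97, a call lost without 3BRO 2 or 3BRO 3 (0.052 and 0.051). FRO5, a near copy of FRO4, was called lower, but only 1 array of 3BRO and none of 3B7N measured it, so its bound was 1.02-fold. The chloroplast copper pump PAA1 (AT4G33520) fell by 0.98, a call lost on averaging its probes (-0.56, adjusted p 0.084). Other uptake genes were not called. COPT1, COPT4 and COPT5 had differences of -0.29, 0.47 and 0.16, FRO2 and FRO3 of -0.21 and -0.26, IRT1 and IRT2 of 0.66 and -1.37, and YSL1 and YSL3 of -0.40 and -0.34.

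The copper enzymes that FSD1 stands in for did not pass the threshold. CSD1, a copper/zinc superoxide dismutase, had levels of 5.34, 5.31 and 5.19 with 3B7N, against 4.61, 4.77 and 4.78 with 3BRO. The arrays did not overlap, and the difference was 0.56 (interval 0.20 to 0.91, adjusted p 0.062). Their chaperone CCS differed by 0.41 (0.16 to 0.66, adjusted p 0.055) and CSD2 by 0.12 (-0.18 to 0.42). SPL7 itself differed by -0.06 (adjusted p 0.88). The 2 called rises of the list were LAC2, a laccase (1.41), and the copper pump HMA5 (0.59), whose call was lost without 3B7N 1, 3B7N 3, 3BRO 1 or 3BRO 2 (adjusted p 0.062 to 0.087). Of 26 iron genes 3 rose (11.5%, against 2.72% of all loci), VIT1 by 2.15, MYB10 by 1.66 and ZIF1 by 0.86. With the slide block 2 rose, and after normexp or with the 6 arrays alone 1 rose. In the main fit 1 iron gene fell (3.85%, against 4.82% of all loci). That was NAS4 (-1.19), a call lost on leaving out any array but 3B7N 2 (adjusted p 0.055 to 0.078).

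**Figure D3:**
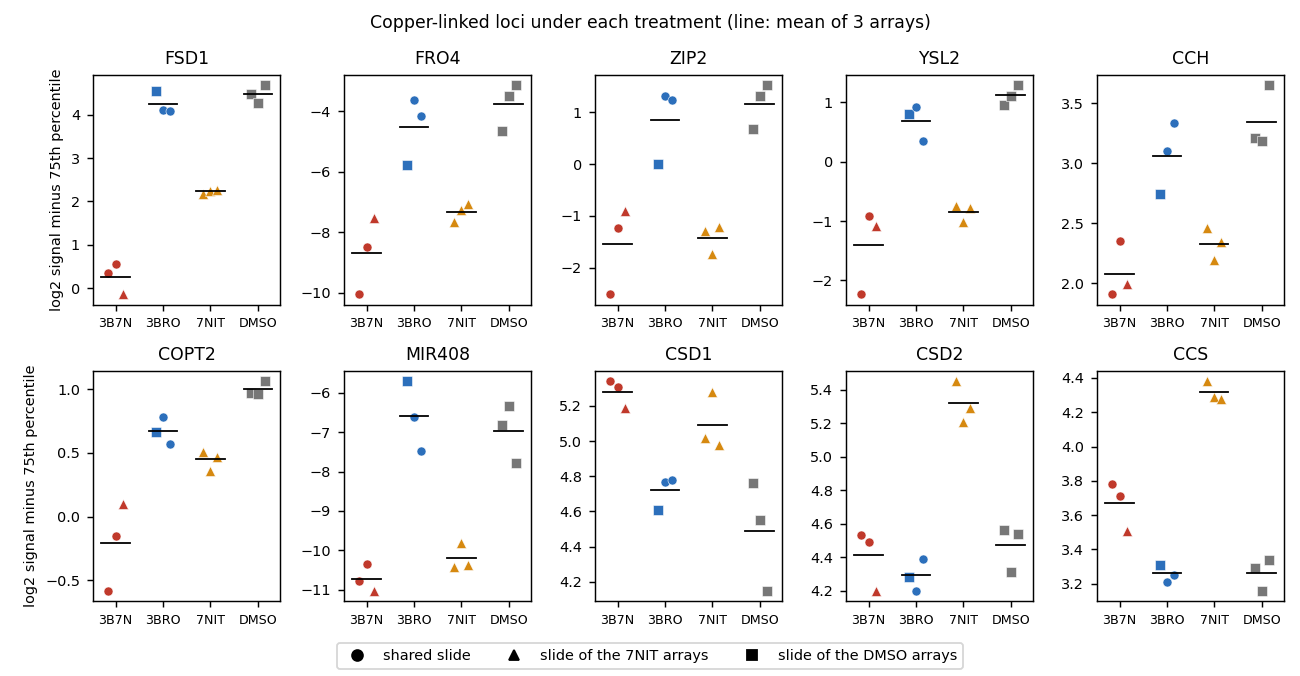
Level on each array (log2 signal minus the array's 75th percentile, with an axis of its own for each locus) of 10 copper-linked loci under 3B7N, 3BRO, 7NIT and DMSO; lines are means of 3 arrays and symbols give the slide. FSD1, FRO4, ZIP2, YSL2, CCH and MIR408 lie lower on the 3B7N arrays than on every 3BRO array, and lower on the 7NIT arrays than on every DMSO array.

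Some nuclear genes of photosynthesis were lower with 3B7N, by modest amounts. All 24 tested photosystem and electron transport genes had a difference below 0, from -0.76 to -0.22. Called lower were 8 of them (33.3%), against 4.82% of all loci. With quantile normalization 20 were below 0 and 4 above, the median was -0.18 in place of -0.42, and 2 were called, and with the slide block 2 were called. Of 17 Calvin cycle genes 10 (58.8%) fell, with a median of -0.59, and with an array left out 7 to 9 fell. With the slide block 6 fell, and with quantile normalization 7 fell at a median of -0.25. CP12-2, the small regulator of the cycle, had levels of -0.46, 0.39 and -0.22 with 3B7N, against 2.02, 1.28 and 1.28 with 3BRO. The difference was -1.62 (SE 0.26, adjusted p 0.0057), larger than for the enzymes PRK (-1.04), FBA1 (-1.02), PGK1 (-0.99) and SBPASE (-0.91). The photosystem count was 5 without 3B7N 1 and 4 without 3B7N 3, 3BRO 2 or 3BRO 3.

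Antenna genes were called lower at 3 of 20 (15%, against 4.82% of all loci), and 1 of them stood out by size. The median of the list was -0.25, but 0.06 with quantile normalization, where 16 of the 20 were above 0. LHCB4.3, a minor antenna protein of photosystem II, had levels of 0.51, 0.93 and 0.73 with 3B7N, against 3.24, 3.09 and 2.68 with 3BRO. No array of 3B7N came near the 3BRO arrays, and the difference was -2.28 (SE 0.18, adjusted p 0.00016). The other called members, LHCA6 and LHCA5, differed by -0.92 and -0.65, and the LHCA6 call was lost without 3BRO 1 or 3BRO 2 (adjusted p 0.056 and 0.054). Of 66 plastid-encoded loci 1, ATCG00480, was called lower (-0.59), and the call was lost without any array but 3B7N 1 (adjusted p 0.063 to 0.1). Of 59 mitochondrion-encoded loci none was called by limma, with 3 at an unadjusted p under 0.05.

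Chlorophyll synthesis genes split. PORA rose, while PORC, the reductase of green tissue, had levels of -0.84, -0.17 and -0.36 with 3B7N, against 0.67, 0.70 and 0.60 with 3BRO. PORC was lower on every 3B7N array, by -1.11 on average (SE 0.17, adjusted p 0.0047). PCB2, the divinyl reductase of the pathway, fell by 1.00 (SE 0.14). GSA2 (-0.67) and CHLI1 (-0.59) were also called lower. With an array left out the call of GSA2 was kept without 3B7N 1, 3B7N 2 or 3BRO 1 and that of CHLI1 without 3BRO 1 only, and the highest adjusted p was 0.064 and 0.11.

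Of 33 light signalling genes 1 rose (3.03%) and 2 fell (6.06%), near the 2.72% and 4.82% of all loci. CRY3, a cryptochrome of the DASH type, had a difference of -1.03 (adjusted p 0.012), called with any array left out. HY5, the transcription factor that promotes light responses, had a difference of -0.94, and PHYA, the far-red light receptor, of 0.86. Each was called in the full fit (adjusted p 0.032), but leaving out any 1 of 5 arrays ended the call (up to 0.096 for HY5 and 0.094 for PHYA). Flavonoid genes were lower at 6 of 22 (27.3%), with a median of -0.68. TT4, chalcone synthase, had levels of 0.98, 1.41 and 1.78 with 3B7N, against 2.75, 2.69 and 2.84 with 3BRO, a fall of 1.37 (SE 0.22, adjusted p 0.0062). TT7, flavonoid hydroxylase, fell by 0.90, and the flavonol regulator MYB12 by 1.29, a call lost without 3BRO 2 or 3BRO 3 (adjusted p 0.053 and 0.054). The flavonoid count was 3 without 3BRO 1 and 2 without 3BRO 2.

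Genes of elongation growth were higher in part. Of 15 shade and elongation markers 4 rose (26.7%) and none fell, against 2.72% higher and 4.82% lower over all loci. All 15 differences were above 0, from 0.19 to 2.68. With the slide block 2 rose, and 10 differences were above 0 and 5 below. The largest was that of ST2A, a sulfotransferase, and CKX5, a cytokinin oxidase, rose by 1.33. IAA19, an auxin-induced repressor of auxin signalling, had levels of 0.69, 1.17 and 1.58 with 3B7N, against -1.32, -0.31 and -0.34 with 3BRO. Its difference was 1.81 (SE 0.32, adjusted p 0.0087). Aux/IAA genes moved both ways. Of 26, 5 were higher (19.2%), IAA6, IAA5 (2.22) and IAA20 (2.1) among them. Lower were 2 (7.69%), IAA31 (-1.55) and IAA27 (-0.79). SAUR genes, short-lived auxin targets, were also split, 7 being higher (9.33%) and 6 lower (8%) of 75, with SAUR60 (-1.98) the lowest. Without 3BRO 1 and 3BRO 2 in turn, 3 and 4 were called higher, and without 3B7N 3, 3BRO 2 and 3BRO 3 in turn, 2, 3 and 2 were called lower. The median of the SAUR list was 0.13, but -0.25 with the slide block, where 4 rose and 4 fell. PIN5, an auxin carrier of the endoplasmic reticulum, had levels of -10.92, -10.08 and -7.71 with 3B7N, against -4.05, -4.95 and -5.39 with 3BRO. It was well above background on 1 array of 3B7N, and its difference was -4.77 (SE 0.70, adjusted p 0.0041). GA20OX1, which makes gibberellin, rose by 2.06 (SE 0.35).

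Cell wall enzymes of the XTH family, which cut and rejoin xyloglucan, gave some of the firmest rises. XTH17 had levels of -1.82, -2.08 and -0.87 with 3B7N, against -5.05, -3.83 and -4.21 with 3BRO (difference 2.77, SE 0.39, adjusted p 0.0037). XTH18 and XTH19 rose by 2.0 and 2.25, and probes of these close relatives can share transcripts. In the XTH and expansin list 4 of 47 rose (8.51%, against 2.72% of all loci). From it 5 fell (10.6%, against 4.82%), led by XTH26 (-2.35). The falls hung on single arrays: 10 loci were called lower without 3BRO 1, 1 without 3B7N 1, 2 without 3B7N 2 or 3BRO 3 and none without 3BRO 2, while the rises numbered 4 or 5. XTH26 was lost without 3B7N 1, 3BRO 2 or 3BRO 3 (adjusted p 0.056, 0.069 and 0.063). Of 13 root and root hair markers 2 (15.4%), EXPA18 (-1.62) and RSL2 (-1.14), were called lower. EXPA18 and EXPA7 are also members of the XTH and expansin list, so both lists hold some of the same loci. The count of markers called lower was 6 without 3BRO 1, 1 without 3B7N 3 and none without any other single array. With the slide block 6 of these markers fell, and 9 loci of the XTH and expansin list. At EXPA18 the levels were -4.09, -4.04 and -3.44 with 3B7N, against -3.12, -1.71 and -1.87 with 3BRO, so that 3BRO 1 stood nearest to the 3B7N arrays. Fewer root hair cells and less RNA per cell cannot be told apart in whole seedlings, and the part of root tissue in the other results was not tested.

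Most members of the abscisic acid and jasmonate lists lay above 0. Of 24 genes of abscisic acid, cold and drought response 11 rose (45.8%, against 2.72% of all loci) and none fell, with a median of 1.34. Differences below 0 were seen at 3 of them, the lowest being -1.64. The count of rises was 5, 6, 4 and 7 without 3B7N 2, 3BRO 1, 3BRO 2 and 3BRO 3, and 6 with the slide block. RD29A, a classic target of drought and cold, had levels of 4.60, 3.49 and 3.07 with 3B7N, against 0.60, 0.33 and 1.39 with 3BRO, a rise of 2.94 (SE 0.49, adjusted p 0.0067). HAI2, a phosphatase gene of abscisic acid signalling, rose by 3.48 and RD29B by 2.84. KIN1 and KIN2, near copies of each other, rose by 2.64 and 2.3, but 3BRO 3 stood high in its group at 3.1 and 3.45. Both calls were lost without 3B7N 1, 3B7N 2, 3BRO 1 or 3BRO 2 (adjusted p 0.054 to 0.073 for KIN1 and 0.086 to 0.11 for KIN2).

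Jasmonate genes rose at 5 of 21 (23.8%, against 2.72% of all loci), with a median of 1.09. NATA1, dim on every 3BRO array, is among the 5. Of the 21 differences 1 was below 0, at -0.06. Against DMSO the median of the list was 0.62 with 3B7N and -0.36 with 3BRO. VSP1, a vegetative storage protein, had levels of -0.82, -1.16 and -1.39 with 3B7N, against -2.80, -2.83 and -2.65 with 3BRO, a rise of 1.64 (SE 0.17, adjusted p 0.0009). VSP2, its near copy, rose by 1.57, and JAZ10, a repressor of jasmonate signalling, by 2.80. OPR3, an enzyme of jasmonate synthesis, rose by 1.46, a call lost without 3B7N 1 or 3BRO 3 (adjusted p 0.056 and 0.06). ADC2, which opens polyamine synthesis, had levels of 5.10, 5.39 and 5.09 with 3B7N, against 4.13, 4.04 and 4.07 with 3BRO, and rose by 1.11 (SE 0.13, adjusted p 0.0012). The camalexin enzyme CYP71B15 rose by 0.92 (SE 0.16).

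Genes of detoxification moved in both directions. Glutathione transferases rose at 8 (20.5%) and fell at 4 (10.3%) of 39. Glycosyltransferases rose at 9 (15.3%) and fell at 3 (5.08%) of 59. P450 genes rose at 15 (7.61%) and fell at 14 (7.11%) of 197. Over all loci 2.72% were called higher and 4.82% lower, so the share of falling glycosyltransferases was near that of all loci. With the slide block 9 P450 genes rose and 24 fell. UGT76E12 rose by 1.90 and UGT74E2 by 1.07, while GSTU23 fell by 1.63. The count of rising glutathione transferases was 1 without 3B7N 1, 4 without 3BRO 1 and 2 without 3BRO 2 or 3BRO 3, and that of falling ones 2 without 3B7N 1, 3BRO 2 or 3BRO 3. Rising glycosyltransferases numbered at least 6 with any array left out. Falling ones numbered 1 without 3B7N 1, 3B7N 2 or 3BRO 1, 5 without 3B7N 3 and none without 3BRO 2 or 3BRO 3. Without 3BRO 2, 9 P450 genes fell. Peroxide-removing enzymes fell at 5 of 15 (33.3%), GPX7 and the thylakoid ascorbate peroxidase TAPX (-0.82) among them. The count was 2 without 3B7N 1, 3BRO 2 or 3BRO 3 and 3 without 3B7N 3 or 3BRO 1. APX2, not well above background on any 3BRO array, was at least 3.12-fold higher. Its call was lost without 3B7N 2, 3B7N 3, 3BRO 2 or 3BRO 3 (adjusted p 0.093 to 0.13). 

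The counts of the remaining lists stand beside 2.72% higher and 4.82% lower over all loci. Dark and senescence genes rose at 5 of 19 (26.3%), and at 3 without any 1 array of 3B7N, 2 without any 1 array of 3BRO and 1 with the slide block. Aliphatic glucosinolate genes fell at 3 of 13 (23.1%), with 1 call left without 3B7N 2, 3BRO 1 or 3BRO 2 and none without 3BRO 3. Nitrogen assimilation genes fell at 2 of 11, with 1 call left without 3B7N 2 or 3BRO 1 and none without any other array. Auxin carriers and conjugating enzymes fell at 2 of 15, PIN5 among them, and at 1 with any array left out. Gibberellin and brassinosteroid genes rose at 3 and fell at 1 of 28, with 2 rises without 3B7N 2 or any array of 3BRO. Camalexin and indole genes rose at 2 of 13, and polyamine genes rose at 1 and fell at 1 of 8. Salicylate genes rose at 1 and fell at 1 of 17, the rise being called without 3B7N 3 but lost without any other array. Seed markers rose at 1 of 11, which was lost without 3B7N 1, 3BRO 2 or 3BRO 3. Among 14 clock genes and 11 heat shock genes limma called none, with 2 and 3 at an unadjusted p under 0.05. With the slide block 3 heat shock genes rose and 1 clock gene fell, and 1 clock gene fell without 3B7N 3.

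**Figure D4:**
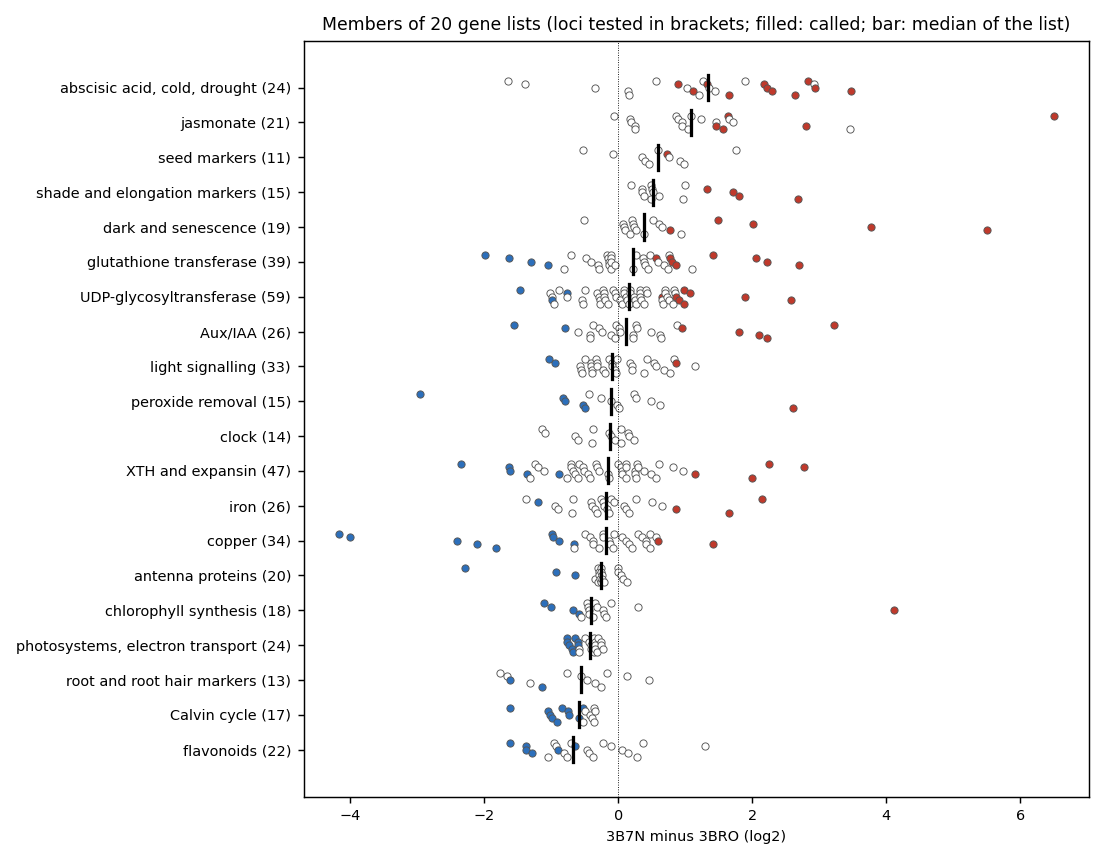
Difference between 3B7N and 3BRO (horizontal, log2) of each tested member of 20 gene lists, with the number tested in brackets; filled points passed the threshold and black bars are list medians. The abscisic acid and jasmonate lists have medians of 1.34 and 1.09, and the flavonoid and Calvin cycle lists of -0.68 and -0.59, against -0.01 over all loci.

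FRK1, a receptor kinase gene used as a marker of flagellin response, was a case in which 3BRO seedlings stood apart from those on DMSO. Its levels were -7.02, -7.17 and -7.01 with 3B7N, against -5.48, -5.85 and -5.94 with 3BRO, and the mean with DMSO was -7.34. It differed by -1.31 (SE 0.14, adjusted p 0.0009). FRK1 was the 1 locus (0.00427%) called between 3BRO and DMSO, where 886 loci had an unadjusted p under 0.05. By contrast 3686 loci (15.7%) were called between 3B7N and DMSO. These comparisons share the DMSO arrays, and the slides differ between them, since all DMSO arrays lay with 3BRO 1.

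The same nitro group can be compared without the bromine, as 7NIT against DMSO, which uses no array of the 3B7N and 3BRO groups. In that comparison 6 loci (0.0256%) were called, 3 of which, FSD1, FRO5 and CCS, are on the copper list of 34 tested members. FSD1 (-2.26) and FRO5 (-3.23) were lower with 7NIT, and CCS (1.05) was higher. FRO5 was well above background on all 3 DMSO arrays and on no 7NIT array. It entered the test only through DMSO, where it was high, so its call is no support. The test of the difference between both nitro comparisons, (3B7N minus 3BRO) minus (7NIT minus DMSO), called 155 loci (0.661%). The count was 31, 81 and 85 without 3BRO 2, 3BRO 3 and 3BRO 1, and 383 without 3B7N 2. With the slide as a block this test rests on 3B7N 3 and 3BRO 1 alone of their groups, so no count is given. All 7NIT arrays lay on 1 slide and all DMSO arrays on another, so treatment and slide cannot be told apart in 7NIT against DMSO. Across all 23443 loci the differences of both comparisons correlated at 0.07, and at 0.17 when 3B7N minus 3BRO was taken on the shared slide alone. Loci are not independent replicates, and in the first value both differences hold arrays of the same slides.

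Of the 24 leading loci measured on all 6 arrays, 16 were called in the interaction, beside 0.661% of all loci. They were chosen for an extreme difference between 3B7N and 3BRO, which the interaction contains, so nothing is read from that count. DIN11 had levels of -6.74, -7.11 and -7.95 with 7NIT, against -7.22, -7.59 and -8.06 with DMSO. It differed by 5.51 between 3B7N and 3BRO and by 0.36 between 7NIT and DMSO (interaction 5.15, SE 0.46, adjusted p 0.0024). PORA differed by 0.08 between 7NIT and DMSO (interaction 4.04, adjusted p 0.011), CYP706A6 by -0.38 (interaction -4.13, adjusted p 0.016) and LHCB4.3 by 0.02 (interaction -2.30, adjusted p 0.0051). The other leaders of the interaction were AT2G37870 (3.96), SAUR11 (3.82) and AT1G16850 (3.82) upwards, and AT4G34550 (-4.04), AT1G29720 (-3.40), AT1G07450 (-3.03) and AT1G52770 (-2.92) downwards.

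Several copper-linked loci were low with the nitro group both with and without the bromine. ZIP2 had levels of -1.30, -1.74 and -1.21 with 7NIT, against 0.68, 1.31 and 1.53 with DMSO. It differed by -2.40 between 3B7N and 3BRO and by -2.59 between 7NIT and DMSO (interaction 0.19, adjusted p 0.91). YSL2 differed by -2.1 between 3B7N and 3BRO and by -1.97 between 7NIT and DMSO (adjusted interaction p 0.91). FRO4 differed by -4.16 between 3B7N and 3BRO and by -3.56 between 7NIT and DMSO (0.79), and CCH by -0.97 and by -1.01 (0.96). None of these loci was called in 7NIT against DMSO, where the adjusted p was 0.11 for ZIP2, 0.082 for YSL2, 0.19 for FRO4 and 0.19 for CCH. Their groups did not overlap in either comparison. Over all loci, 3B7N arrays all lay above those of 3BRO at 11.4% and all below at 14%. The share for 7NIT against DMSO was not counted, and each of these groups lay on a slide of its own, so nothing is read from the lack of overlap. MIR408 was well above background on no array of 3B7N or 7NIT, and was so on all 3 of 3BRO and 2 of DMSO. It entered the test only through 3BRO, where it was high, so it is no support. FSD1 was the 1 locus of the copper list called in the interaction. It had levels of 2.17, 2.25 and 2.27 with 7NIT, against 4.48, 4.28 and 4.69 with DMSO. Its difference of -4.00 between 3B7N and 3BRO was larger than the -2.26 (adjusted p 0.005) between 7NIT and DMSO (interaction -1.74, SE 0.28, adjusted p 0.025). PAA1 was not low with 7NIT: it differed by -0.98 between 3B7N and 3BRO and by 0.16 between 7NIT and DMSO (interaction -1.13, adjusted p 0.059). COPT6 differed by -0.66 between 3B7N and 3BRO and by -0.19 between 7NIT and DMSO (adjusted interaction p 0.26), and COPT2 by -0.88 and by -0.55 (0.5). CCS and CSD2, the copper chaperone and copper enzyme of the chloroplast, differed by 1.05 (adjusted p 0.016) and 0.85 (adjusted p 0.085) between 7NIT and DMSO, and their interactions were -0.64 and -0.73 (adjusted p 0.092 and 0.1).

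**Figure D5:**
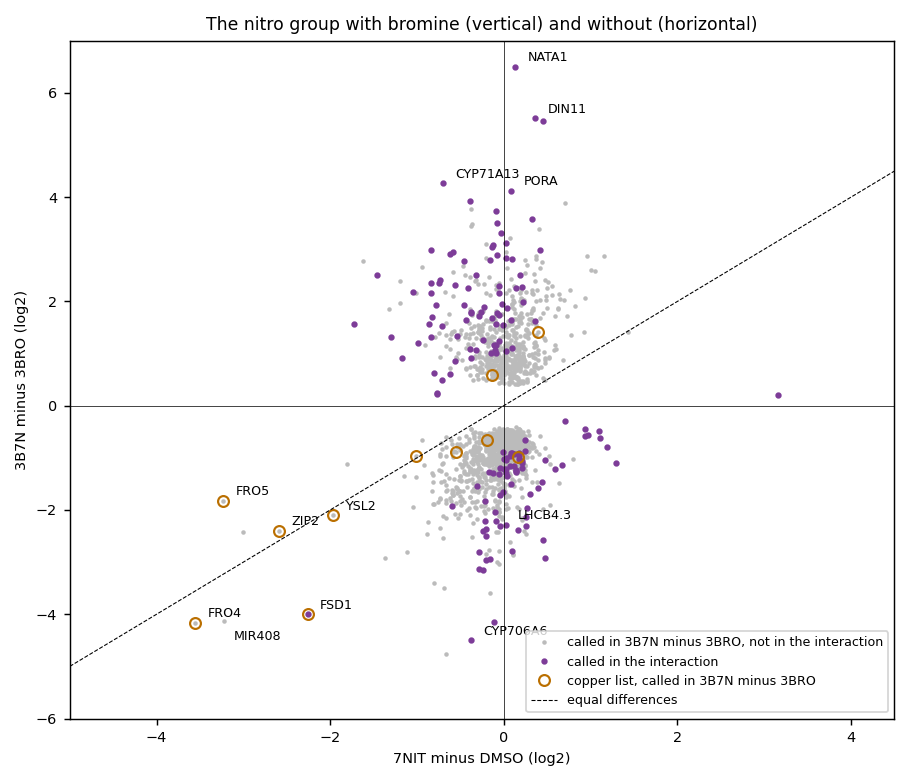
Difference between 3B7N and 3BRO (vertical, log2) against the difference between 7NIT and DMSO (horizontal, log2) for loci called in 3B7N minus 3BRO or in the interaction; purple points are the 155 loci called in the interaction, rings are called copper-list loci and the dashed line marks equal differences. FRO4, ZIP2 and YSL2 lie near the dashed line, whereas DIN11, PORA, NATA1 and CYP706A6 lie near the vertical axis.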

How the data were processed

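The 12 single-colour arrays were scanned and read with Feature Extraction (Agilent, version 10.7.3.1; per the submitters' processing notes). The spot intensity used here is the deposited processed signal, already background-corrected per the file headers, and the authors' table of fold changes was not used. Here it was put on the log2 scale, minus the 75th percentile of the same array. Control spots and spots marked as outliers were left out, with any probe that then lacked a value on an array. A probe was kept if every array of 1 or more of the 4 treatments read it well above background, and the brightest kept probe stood for its locus. In this way 114 loci were lost to marked spots alone. Gene symbols are those of RefSeq (assembly TAIR10.1), whose table held 23192 of the 23443 loci tested and gave 9562 a symbol; the others go by locus, and no coordinates are given.

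Differences were fitted with limma 3.58.1 (lmFit, eBayes) in R 4.3.3 over all 12 arrays, with Benjamini-Hochberg adjustment over all loci and a threshold of 0.05, and the fits were tested on simulated data. Genes were named by rules on the size of the difference: the 12 highest and 12 lowest called loci without overlap measured on all 6 arrays, up to 5 each way that were dim in 1 group, up to 5 called members of each of 32 gene lists (any member for copper, iron, light, Aux/IAA and chlorophyll), and the 5 highest and lowest interactions. The members and the gene lists were chosen with earlier results of these data known. The alternatives were 6 arrays alone, other scalings, background corrections and filters, the mean over probes, and blocks for slide, scan day and replicate number. Each array of 3B7N and 3BRO was also left out in turn. The planned normexp correction needed mean signals, in whose place the median signal and median background were used. The number of arrays limits the precision, and probes of near-identical gene copies can bind transcripts of more than 1 copy. The cry1cry2 genotype named in the series' design was not analysed here.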

Additional observations from a re-analysis of the deposited data

Results flagged for a closer look

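At 33 named loci the difference that came with the nitro group was not the same with the bromine (3B7N minus 3BRO) and without it (7NIT minus DMSO), by limma's interaction test with an adjusted p under 0.05. The interactions below are on the log2 scale, and a positive value means a higher difference with the bromine. Most of these loci were named for a large difference between 3B7N and 3BRO, which is a part of the interaction. NATA1, CYP71A13, AT3G29060 and HDG8 were dim on every 3BRO array, so nothing is read from their calls. All 7NIT arrays and all DMSO arrays lay on separate slides, and the part of the slide in these values was not tested.

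The interaction was 6.37 for NATA1, 5.15 for DIN11, 4.96 for CYP71A13, 4.31 for AT3G29060, 4.04 for PORA and 3.96 for AT2G37870. At the first 5 of these 7NIT and DMSO differed by -0.70 to 0.36, while at AT2G37870 the 7NIT mean was lower by -1.46 than that of DMSO. It was 3.82 for both SAUR11 and AT1G16850, 3.58 for AT4G17470, 3.34 for HDG8, 3.26 for AT4G35720, 3.21 for AOX2, 3.19 for AT2G35070 and 3.09 for CBSX5. The wall genes XTH17 and XTH19 had 3.23 and 2.66, UGT76E12 had 2.13, the storage protein genes VSP2 and VSP1 had 1.66 and 1.56, CYP71B15 had 1.3 and ADC2 had 1.02.

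Downwards the interaction was -1.02 for PCB2, -1.74 for FSD1, -2.30 for LHCB4.3, -2.52 for AT1G24148, -2.75 for GPX7, -2.78 for AT1G66540 and -2.83 for CYP71B36. The lowest were AT1G52770 (-2.92), AT1G07450 (-3.03), AT1G29720 (-3.40), AT4G34550 (-4.04) and CYP706A6 (-4.13). FSD1 alone among these 12 loci had a called difference between 7NIT and DMSO, of -2.26 (adjusted p 0.005).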

How the results depend on the processing

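The calls of 3B7N against 3BRO numbered 230 (108 higher, 122 lower; 106 and 108 of at least 2-fold) in a fit of the 6 arrays alone, with fewer arrays for the spread, and 645 (212 higher, 433 lower; 145 and 203) after normexp. With blocks for slide and scan day, 373 and 376 were higher. With 1 array left out the calls ranged over 856 to 1639, the higher ones over 319 to 563, the lower ones over 537 to 1076, and those of at least 2-fold over 241 to 394 higher and 291 to 542 lower. The replicate block gave 1967 calls, 1593 of them among the 1768; same-numbered arrays deviated from their group means with correlations of -0.16, -0.07 and -0.06, so the numbers were not taken as pairs. The interaction gave 103 calls with the slide block, 95 with no filter on dim probes, 31 to 383 with 1 array left out, and 0 by limma after normexp, where 2570 loci had an unadjusted p under 0.05. All other counts over all loci stayed within 1.5 times, and the cause of these shifts was not tested. Of 141 named called loci, 27 kept the call in every alternative; 95 lost it with the 6 arrays alone, 70 after normexp, 43 with the slide block, 26 with the scan day block and 7 with the replicate block, and none changed direction in any alternative. With the 6 arrays alone 1 copper gene rose and 1 fell, 1 Calvin cycle gene and no photosystem or flavonoid gene fell, and 1 abscisic acid and 4 jasmonate genes rose. Signal near background limits the folds of NATA1, CYP71A13, MIR408 and FRO5.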
